A study of Homo sapiens with 4 samples.

Results

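The 10 genes described here mark the identity of the retinal pigment epithelium (RPE): MITF, OTX2, PAX6, PMEL, TYRP1, DCT, RLBP1, RPE65, BEST1 and SERPINF1. They were taken by their current NCBI symbols without a threshold on measured values, but with earlier results of these data known. All 10 were found among the 23459 genes listed in each count table. RNA-Seq was performed on hTERT RPE-1, a wild type human cell line of RPE origin that carries the telomerase gene hTERT. All cells had been kept for 48 h in medium with 0.1% FBS and were then exposed to 200 μM merbarone, a catalytic inhibitor of type II DNA topoisomerases, for 4 h (2 libraries) or 8 h (2 libraries). Both groups therefore carry the drug and the serum starvation, and untreated cells were not analysed here, so that every difference is one between a longer and a shorter exposure. Time of exposure and time in low serum cannot be told apart. The model is a single line grown in culture, without the retina and the choroid that border the RPE in the eye.

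The RPE is a single layer of pigmented cells behind the photoreceptors. Its fate is set by the transcription factors MITF and OTX2, with PAX6 acting early in the optic vesicle, and MITF and OTX2 are known to switch on pigment genes together. A mature RPE cell makes melanin, regenerates the visual chromophore, moves ions and nutrients between blood and retina, engulfs shed photoreceptor tips and secretes PEDF, the factor encoded by SERPINF1.

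The transcription factors were well detected in the RPE-1 libraries, while the genes of differentiated RPE functions among the 10 had few reads or none. Of the 10 genes, 8 had at least 1 count in every library, which 59.1% of all listed genes had. The others were RLBP1, with a library at 0, and DCT, with no count in any. A total of 5 genes passed the filter of the study, a CPM above 1 in at least 2 libraries, namely MITF, OTX2, PAX6, SERPINF1 and PMEL. This is 50.0% of the genes, and 53.5% of all listed genes passed. With at least 10 counts asked for in every library, 4 genes remained, without PMEL. The libraries held between 8064450 and 10324697 counts. The limit taken here for a count of 0, 3 counts, corresponds to 0.281 CPM in the largest library (CPM here with TMM scaling). In the smallest library it corresponds to 0.389 CPM. The exact Poisson interval of a count of 0, of the kind given below for other counts, is wider and reaches 3.69 counts. Such limits and all intervals of single counts cover counting error only.

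**Figure D1:**
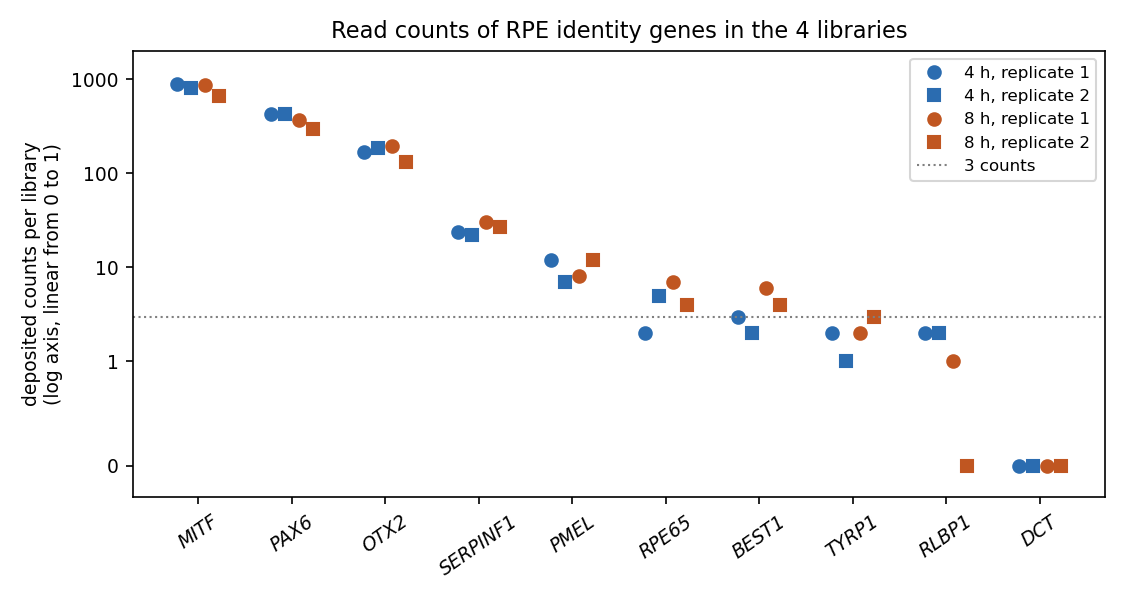
Deposited counts of the 10 RPE identity genes in each of the 4 libraries, on an axis that is logarithmic above 1 count; colours mark the time, symbols the replicate and the dotted line 3 counts. MITF, PAX6 and OTX2 lie between 132 and 882 counts, SERPINF1 between 22 and 30, and the other genes at 12 or below, with DCT at 0 throughout.

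Among the transcription factors, MITF was the most abundant. MITF (NCBI Gene 4286, chromosome 3, 69788607 to 70017487, plus strand, hg19) encodes a basic helix-loop-helix leucine zipper factor that directs pigment cell development. At 4 h it had 882 and 798 counts, and at 8 h 867 and 669. After TMM normalization, which scales each library to a common composition, these became 791.5 and 723.4 at 4 h and 886.8 and 831.3 at 8 h. Both 8 h libraries were above both 4 h libraries, which holds in the same direction for 34.9% of the 12559 genes retained by the filter. The log2FC of 0.18 (standard error 0.0903) had a 95% confidence interval from -0.0062 to 0.37 and did not pass the test (edgeR adjusted p = 0.117). MITF has several promoters whose transcripts differ in their first exon, and counts per gene do not tell the RPE forms from the melanocyte form.

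OTX2 (NCBI Gene 5015, chromosome 14, 57266623 to 57283411, minus strand) encodes a homeodomain factor needed to specify the RPE. It had 170 and 183 counts at 4 h and 193 and 132 at 8 h, or 152.5, 165.9, 197.4 and 164.0 after normalization in the same order. The times overlapped, since 8 h replicate 2 lay below 4 h replicate 2. The log2FC was 0.19, with an interval from -0.14 to 0.52 (edgeR adjusted p = 0.363). The gene OTX2-AS1, on the opposite strand of the locus and without shared exon bases, had between 2 and 5 counts.

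PAX6 (NCBI Gene 5080, chromosome 11, 31806327 to 31839509, minus strand) encodes a paired-domain factor of eye development. Relative to the level of the gene, its normalized replicates were the closest among the retained RPE identity genes. It had 427 and 429 counts at 4 h and 363 and 295 at 8 h, normalized to 383.2 and 388.9 against 371.3 and 366.6. Both 8 h libraries were slightly below both 4 h libraries. The log2FC of -0.065 had an interval from -0.29 to 0.16 (edgeR adjusted p = 0.665), so that folds of 8 h over 4 h below 0.817 or above 1.12 lay outside it. Of the 20639 annotated exon bases of PAX6, 5241 are shared with ELP4 on the other strand, which had between 90 and 128 counts. The sources used here do not state whether reads were assigned by strand, so PAX6 counts are uncertain to that extent.

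The pigment genes among the 10 were near or at the detection limit. PMEL, TYRP1 and DCT are melanosome genes: PMEL forms the amyloid fibrils on which melanin is laid down, and TYRP1 and DCT (dopachrome tautomerase) are enzymes related to tyrosinase. The promoter windows of TYRP1 and DCT from RefSeq (GRCh38.p14), from 250 bases before the annotated start to 50 after it, are shown because both hold the M-box, the extended E-box through which MITF acts on pigment genes, and the core of the OTX2 site. Capitals mark every match of M-box TCATGTG, E-box CATGTG, E-box CACGTG and OTX2 core TAATCC on either strand, and each M-box contains an E-box.
TYRP1, chr9:12693135-12693434, plus strand: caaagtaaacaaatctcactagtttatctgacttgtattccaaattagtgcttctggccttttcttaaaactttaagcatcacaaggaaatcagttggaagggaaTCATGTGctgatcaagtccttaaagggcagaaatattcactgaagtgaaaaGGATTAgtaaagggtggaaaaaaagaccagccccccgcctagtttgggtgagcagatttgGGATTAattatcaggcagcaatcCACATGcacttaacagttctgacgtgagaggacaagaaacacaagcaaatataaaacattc
DCT, chr13:94479633-94479932, minus strand: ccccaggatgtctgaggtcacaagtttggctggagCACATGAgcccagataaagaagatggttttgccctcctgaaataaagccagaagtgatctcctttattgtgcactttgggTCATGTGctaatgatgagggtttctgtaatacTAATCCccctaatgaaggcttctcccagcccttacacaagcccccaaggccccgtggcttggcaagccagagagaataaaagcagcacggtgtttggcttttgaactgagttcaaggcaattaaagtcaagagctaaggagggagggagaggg
In TYRP1 the M-box began 145 bases upstream of the start, and OTX2 cores lay 94 and 34 bases upstream on the reverse strand. In DCT an M-box began 135 bases upstream, another lay 215 bases upstream on the reverse strand, and the OTX2 core began 103 bases upstream. A second DCT window of the table had none of the 4 motifs. Over all 35116 windows of the table, 2.92% hold the M-box, 11.1% the E-box CATGTG, 7.26% the E-box CACGTG and 6.36% the OTX2 core. RefSeq windows existed for 7 of the 10 genes, all except PMEL, BEST1 and SERPINF1. Of their 19 windows, 2 had the M-box (TYRP1 and DCT), 3 the OTX2 core (TYRP1, DCT and RLBP1), 6 the E-box CATGTG and 0 the E-box CACGTG. A match describes the letters only and does not show binding.

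DCT (NCBI Gene 1638, chromosome 13, 95089065 to 95131936, minus strand, hg19) had 0 counts in all 4 libraries. TYRP1 (NCBI Gene 7306, chromosome 9, 12685439 to 12710285, plus strand) had 2 and 1 counts at 4 h and 2 and 3 at 8 h. Both were thus at or under the limit of 3 counts in every library. For TYRP1, the sums of 3 counts at 4 h and 5 at 8 h gave a ratio of 2.07 after scaling, with an exact counting interval from 0.403 to 13.4, and no difference was detectable at this depth.

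PMEL (NCBI Gene 6490, chromosome 12, 56347889 to 56367101, minus strand) had 12 and 7 counts at 4 h and 8 and 12 at 8 h, normalized to 10.8, 6.35, 8.18 and 14.9. The lowest and the highest value came from different times and the groups overlapped. The log2FC of 0.39 (edgeR adjusted p = 0.588) had an interval from -0.71 to 1.49, and it was -0.066 without 8 h replicate 2 (edgeR adjusted p = 0.95). PMEL shares 89 of its 3671 exon bases with CDK2 on the other strand. CDK2, a cell cycle kinase, had 1045 and 986 counts at 4 h and 423 and 360 at 8 h, and its part in the PMEL counts was not tested.

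The visual cycle and channel genes of the 10 were also close to the limit. RPE65 (NCBI Gene 6121, chromosome 1, 68894505 to 68915637, minus strand) encodes the isomerase that regenerates the visual chromophore and had 2 and 5 counts at 4 h and 7 and 4 at 8 h. RLBP1 (NCBI Gene 6017, chromosome 15, 89753100 to 89764845, minus strand), which encodes the retinaldehyde-binding protein CRALBP, had 2 and 2 counts at 4 h and 1 and 0 at 8 h. BEST1 (NCBI Gene 7439, chromosome 11, 61717535 to 61732987, plus strand), which encodes the anion channel bestrophin-1, had 3 and 2 counts at 4 h and 6 and 4 at 8 h. None of these genes reached 8 counts in a library. The normalized 8 h to 4 h ratios of the summed counts were 1.95 (exact counting interval 0.692 to 5.95) for RPE65, 0.311 (0.00632 to 3.14) for RLBP1 and 2.49 (0.775 to 9.28) for BEST1, so that a change in either direction was not detectable at this depth. When all genes with a count were tested, their edgeR adjusted p-values were 0.502, 0.612 and 0.39, and that of TYRP1 was 0.64. BEST1 shares 1267 of its 8688 exon bases with FTH1, a ferritin gene on the other strand that had between 6562 and 8337 counts. BEST1 itself stayed at 6 counts or below.

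SERPINF1 (NCBI Gene 5176, chromosome 17, 1665323 to 1680859, plus strand), the gene of the secreted factor PEDF, was the only one of the genes of differentiated functions with at least 22 counts in every library. It had 24 and 22 counts at 4 h and 30 and 27 at 8 h, which normalized to 21.5 and 19.9 against 30.7 and 33.6. Both 8 h libraries were above both 4 h libraries, and the replicates of each time lay closer together than the times. The log2FC of 0.62 (standard error 0.323) was the largest of the 5 genes tested, but its interval ran from -0.053 to 1.30 and it did not pass the test (edgeR adjusted p = 0.135). The Poisson interval of the lowest count, 22, ran from 13.8 to 33.3 and that of the highest, 30, from 20.2 to 42.8.

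**Figure D2:**
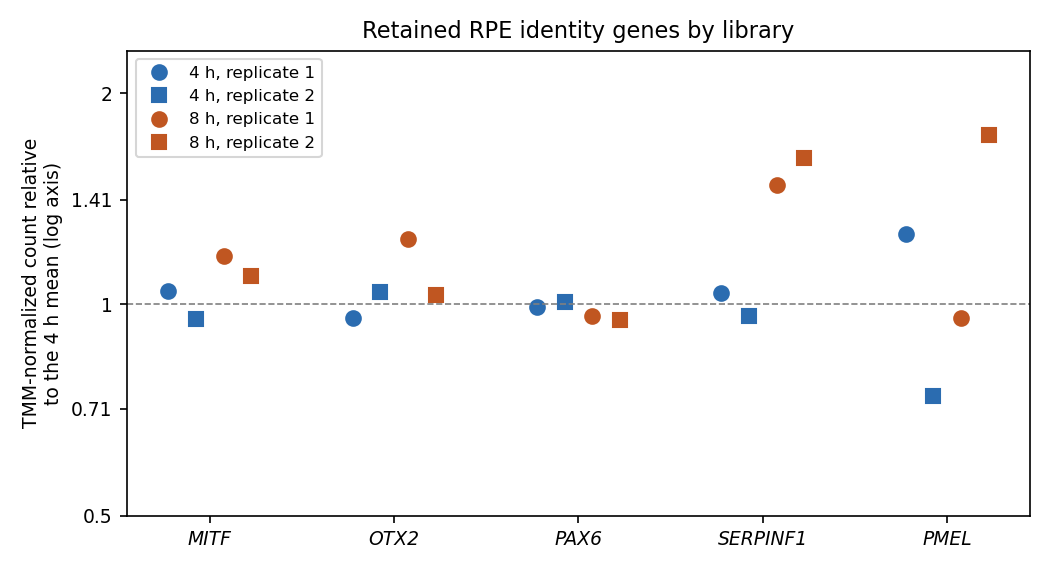
TMM-normalized count of each of the 5 retained RPE identity genes in each library, divided by the mean of its 4 h libraries, on a logarithmic axis; colours mark the time and symbols the replicate. The 8 h libraries lie above both 4 h libraries for MITF and SERPINF1 and below both for PAX6, and the times overlap for OTX2 and PMEL.

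None of the RPE identity genes was called different between 4 h and 8 h. A DEG had an adjusted p below 0.05 and an absolute log2FC above 1, which 5.33% of the retained genes met, 1.45% higher and 3.88% lower at 8 h. With edgeR, 0 of the 5 genes tested were DEGs, 0 passed at an adjusted p below 0.05 alone, which 38.8% of retained genes did, and 0 had an unadjusted p below 0.05, against 47.3% of retained genes. Limma-Voom also gave 0 of the 5 by any of these rules. DESeq2 gave 0 as well, but it returned no adjusted p for PMEL. The groups did not overlap for 3 of the 5 genes, against 69.7% of the retained genes. The median log2FC of the 5 was 0.19, and it was -0.0024 over all retained genes. With 2 libraries per time, an exact permutation test cannot give a p below 0.333, so these tests rest on the spread that edgeR shares across genes. The p-values measure the spread between replicates of 1 line, which the study calls biological.

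Levels of different genes were compared per length, as TMM-normalized CPM per kilobase of annotated exon. In this unit MITF had a mean of 11.4 (10.2 to 12.5 over the 4 libraries), OTX2 5.21 (4.68 to 6.05), PAX6 1.91 (1.85 to 1.96), SERPINF1 0.921 (0.695 to 1.17) and PMEL 0.285 (0.18 to 0.423). The ranges of these neighbours in the order did not overlap. Below PMEL came RPE65 at 0.185, RLBP1 at 0.0653, TYRP1 at 0.0591 and BEST1 at 0.0468, and from PMEL to BEST1 the range of each overlapped that of the next, so that their order is not resolved. Among the 22209 listed genes with a length, MITF stood at percentile 83.4, OTX2 at 71.4, PAX6 at 57.9, SERPINF1 at 51.8 and PMEL at 45.0. The order of OTX2 and PAX6 depended on the length used. With the longest transcript in place of all annotated exons, the mean level of PAX6 was 5.67 and that of OTX2 5.88, and their ranges overlapped.

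The cell type named in the labels was compared with 5 further lists of RPE genes, 69 genes in all, and with markers of other cell types. Of 16 genes of melanin synthesis and melanosomes, 11 were retained. RAB32, a GTPase that sends enzymes to melanosomes, was the highest at 157 CPM per kilobase. Other genes of this list were found on both sides of the filter. GPR143, a melanosome receptor gene, had between 184 and 236 counts (9.33 CPM per kilobase), and SLC45A2, a melanosome transporter gene, between 33 and 41. MYO7A, a motor gene of melanosome transport, had 2 counts or fewer, and TYR, MLANA and OCA2, the genes of tyrosinase, of a melanosome antigen and of a melanosome anion transporter, had no count in any library. Of 10 visual cycle and retinoid genes, 4 were retained, with RDH11, a retinol dehydrogenase of broad expression, the highest at 31.1 CPM per kilobase. RGR, a retinal opsin of the RPE, had no count, and LRAT, the enzyme that makes the retinyl esters on which RPE65 acts, had at most 1. Of 21 genes of phagocytosis, transport and junctions, 15 were retained, with GAS6, a ligand of the engulfment receptor MERTK, at 253 CPM per kilobase. The RPE potassium channel gene KCNJ13 and the lactate transporter gene SLC16A8 had no count. Of the 10 secreted RPE genes 9 were retained, and of the 12 transcription factors 8, with CTSD (cathepsin D, 539 CPM per kilobase) and TFE3 (a relative of MITF, 49.2) the highest.

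The listed markers of melanocytes and of the neural retina were nearly absent. Summed over 5 melanocyte markers there were between 15 and 20 counts per library, and SOX10, KIT and PAX3 were at 0; the highest was ERBB3, a receptor gene, at 0.154 CPM per kilobase. Summed over 7 neural retina markers there were between 6 and 16, and CRX, RCVRN, PDE6B and GRM6 were at 0; the highest was NRL, a rod transcription factor gene, at 0.232. The eye-field gene SIX3, counted with the RPE transcription factors and not with these markers, had between 445 and 589 counts (19.9 CPM per kilobase). All 10 mesenchymal markers were retained, led by VIM (vimentin) at 1850 CPM per kilobase. Of the 69 genes of the further RPE lists, 47 were retained (68.1%, against 53.5% of all listed genes). A count in every library was found for 51 (73.9%, against 59.1%). No count in any library was found for 8, and for 7019 of all 23459 listed genes. The further RPE lists were thus present in part, and they include genes of broad expression such as RDH11.

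**Figure D3:**
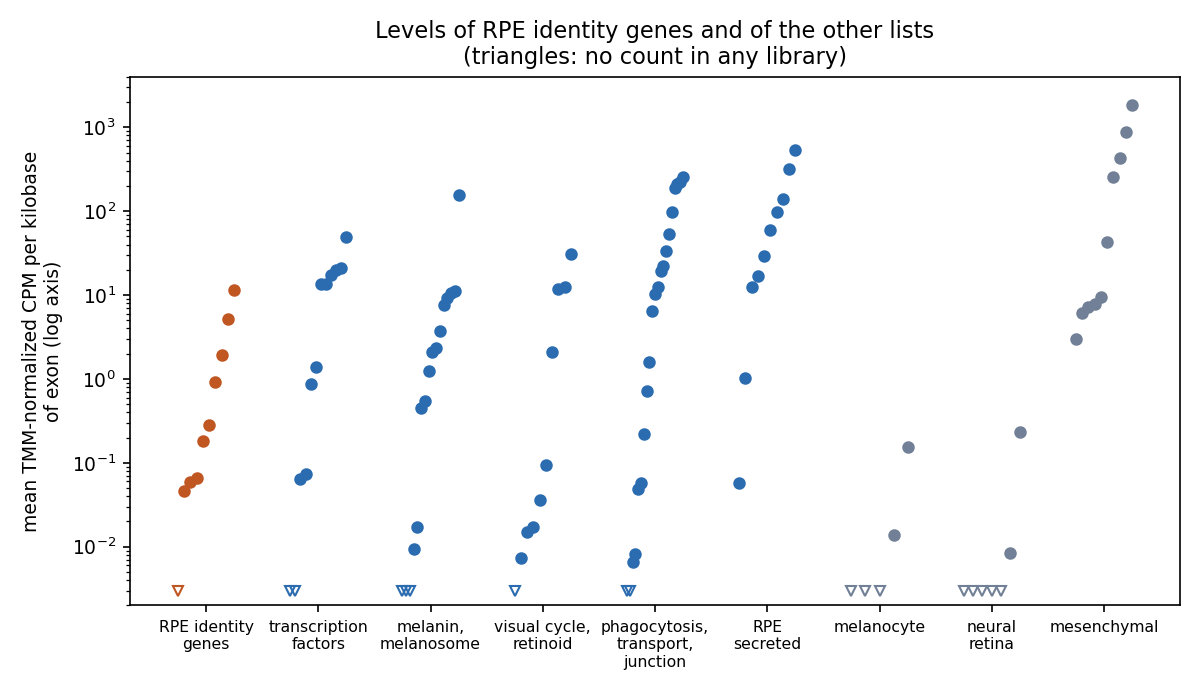
Mean level over the 4 libraries of each gene in TMM-normalized CPM per kilobase of exon, on a logarithmic axis, for the RPE identity genes, 5 further RPE lists and markers of 3 other cell types; each point is a gene and triangles at the bottom are genes with no count. RPE identity genes range from 0 to 11.4, melanocyte and neural retina markers stay at or below 0.232, and mesenchymal markers reach 1850.

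The 5 further lists were then compared between the times. Of their 47 retained genes, 0 were DEGs with edgeR, Limma-Voom or DESeq2, against 5.33% of all retained genes, and 25 had an unadjusted p below 0.05 with edgeR, which 47.3% of all retained genes had. At an adjusted p below 0.05 alone, 13 rose and 7 fell, which is to be read against 19.9% and 18.8% of all retained genes. Scaled by library size alone, which moved the median log2FC of all genes to -0.11, 10 rose and 9 fell. Without 4 h replicate 2 there were 13, of which 8 rose and 5 fell. The median log2FC of the 47 genes was 0.11. In bulk RNA, a lower level per cell and fewer cells that express a gene cannot be told apart.

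Among the transcription factors, 1 rose, 2 fell and 5 retained genes did not pass. TFE3 had 1695 and 1715 normalized counts at 4 h and 2279 and 2253 at 8 h (log2FC 0.41, standard error 0.0756, edgeR adjusted p = 0.000284). SOX9, a transcription factor gene of this list, went from 768.1 and 785.0 to 506.3 and 561.7 (log2FC -0.54, standard error 0.0951, edgeR adjusted p = 0.000171). NR2F1, an orphan nuclear receptor gene of the optic vesicle, went from 962.9 and 990.8 to 794.7 and 780.4 (log2FC -0.31, edgeR adjusted p = 0.0072), a call that ended without 4 h replicate 2 (edgeR adjusted p = 0.0805).

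Among melanosome genes, 2 rose, 1 fell and 8 did not pass. BLOC1S1, which encodes a subunit of the complexes that sort cargo to lysosome-related organelles, had 144.5 and 141.4 normalized counts at 4 h and 199.4 and 219.9 at 8 h (log2FC 0.55, edgeR adjusted p = 0.00697). Without 4 h replicate 1 or 2 its adjusted p was 0.0533 and 0.061 with edgeR. MLPH, melanophilin, which links melanosomes to myosin, went from 572.5 and 631.8 to 459.2 and 500.8 (log2FC -0.33, edgeR adjusted p = 0.015). The MLPH call ended with DESeq2 (adjusted p = 0.0688), without 4 h replicate 2 (edgeR adjusted p = 0.181) and without 8 h replicate 1 (edgeR adjusted p = 0.0658). RAB32 rose by a log2FC of 0.22 (edgeR adjusted p = 0.0494) and lost the call under 8 of 12 alternatives, among them without 4 h replicate 1, 4 h replicate 2 or 8 h replicate 1 (edgeR adjusted p = 0.383, 0.0794 and 0.289).

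Of the visual cycle and retinoid genes, 2 rose and 2 did not pass. RDH10, a retinol dehydrogenase gene, had 597.6 and 494.9 normalized counts at 4 h and 742.5 and 710.8 at 8 h (log2FC 0.41, edgeR adjusted p = 0.00344), with an edgeR adjusted p of 0.114 without 4 h replicate 2. RDH11 had a log2FC of -0.19 (edgeR adjusted p = 0.0664). RDH5, the gene of a retinol dehydrogenase of the visual cycle, had between 43 and 75 counts and a log2FC of -0.29 (edgeR adjusted p = 0.33). RPE65 and LRAT did not pass the filter.

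Of the phagocytosis, transport and junction genes, 4 rose, 3 fell and 8 did not pass. ITGAV, the alpha chain of the integrin that binds photoreceptor tips, had 3329 and 2866 normalized counts at 4 h and 3798 and 4229 at 8 h (log2FC 0.37, edgeR adjusted p = 0.00148), and without 4 h replicate 2 its edgeR adjusted p was 0.0763. GAS6 went up with a log2FC of 0.36 (edgeR adjusted p = 0.000623, standard error 0.073). The lactate exporter gene SLC16A3 fell from 3276 and 3691 to 2162 and 2741 (log2FC -0.51, edgeR adjusted p = 0.000318). The simple epithelial keratin gene KRT18 fell from 3213 and 3518 to 2346 and 2395 (log2FC -0.51, edgeR adjusted p = 3.7e-05). KRT8, the other keratin gene of the list, did not fall with it (log2FC 0.029, edgeR adjusted p = 0.798).

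Of the secreted genes, 4 rose, 1 fell and 4 did not pass. CST3, which encodes the protease inhibitor cystatin C, had 1705 and 1838 normalized counts at 4 h and 2215 and 2508 at 8 h (log2FC 0.41, edgeR adjusted p = 0.000579). CTSD had a log2FC of 0.41 (edgeR adjusted p = 0.000697), with 8 h libraries that differed more, at 29568 and 37733, than the 4 h libraries at 25443 and 25164. Without 8 h replicate 2 the log2FC of CTSD was 0.22 and still passed. BMP4, a growth factor gene of the TGF-beta family, fell from 451.4 and 449.6 to 290.5 and 305.7 (log2FC -0.60, standard error 0.11, edgeR adjusted p = 0.000284).

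**Figure D4:**
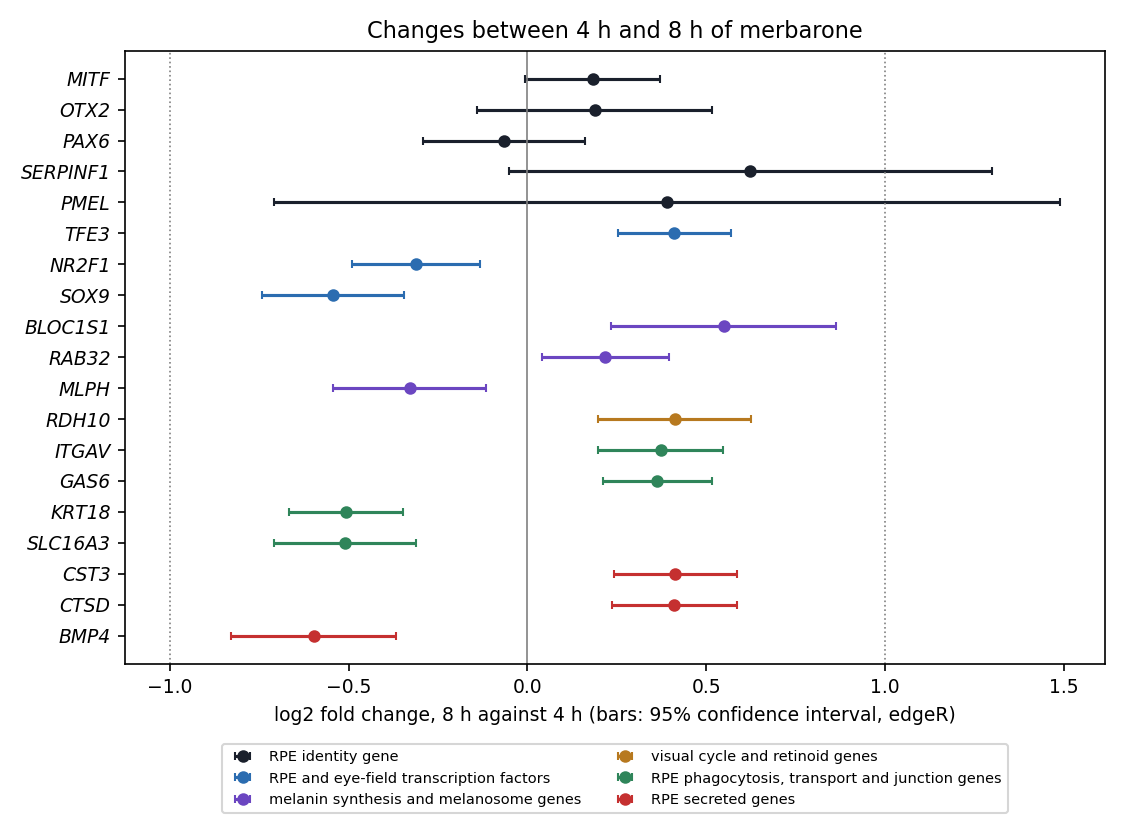
Log2 fold change of 8 h against 4 h with its 95% confidence interval from edgeR, for the 5 retained RPE identity genes and 14 genes of the further lists that passed an adjusted p below 0.05; dotted lines mark the fold-change threshold of 1. The intervals of all 5 RPE identity genes include 0. Those of the 14 other genes exclude 0 because these genes were chosen by that test, and their estimates stay between -0.60 and 0.55.

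Some of the mesenchymal markers changed over the same interval, in both directions. Of these 10 genes, 6 passed an adjusted p below 0.05 alone, against 38.8% of all retained genes, and 0 were DEGs. Of the 6, 4 were higher and 2 lower at 8 h, and the median log2FC of the list was 0.11. The fall of the collagen gene COL1A1 was the largest change of the list, from 787.0 and 814.9 normalized counts to 410.1 and 514.5 (log2FC -0.80, edgeR adjusted p = 9.4e-06). SNAI2, the gene of the transcription factor Slug, fell as well (log2FC -0.55, edgeR adjusted p = 0.0119), but not with DESeq2 (adjusted p = 0.054), without 4 h replicate 2 (edgeR adjusted p = 0.244) or without 8 h replicate 1 (edgeR adjusted p = 0.0633). FN1, the fibronectin gene, rose by a log2FC of 0.36 (edgeR adjusted p = 6.5e-05). VIM had a log2FC of 0.36 (edgeR adjusted p = 0.000623), or 0.22 without 8 h replicate 2. The summed level of the list, in which FN1 and VIM had the most counts, was 26654 and 26270 TMM-normalized CPM at 4 h and 32372 and 33480 at 8 h. Its part in the changes of the RPE lists was not tested.

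The pattern of each retained RPE identity gene over the 4 libraries was compared with those of the 47 retained genes of the further lists, by the largest absolute difference of log2-CPM values centred on their mean. The gene most like MITF was SLC16A1, a lactate transporter gene, with a largest difference of 0.066. RAB32 was most like OTX2 (0.064), NR2F2 most like PAX6 (0.0097) and BLOC1S1 most like SERPINF1 (0.08). For PMEL the nearest gene, ITGAV, differed by up to 0.38. With 4 libraries these likenesses describe the values and carry no test.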

How the data were processed

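After quality filtering with FASTQC, the authors aligned the reads to hg19 (Bowtie 1.2.0) and discarded those with more than a single position. What they deposited is a table of raw counts by NCBI Gene identifier for every library, neither normalized nor pooled. The counting tool, the annotation and the use of strand are not given in the sources used here. Ungapped mapping loses reads across splice junctions, which lowers genes with short exons.

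The 10 genes and the lists were chosen with earlier results of these data known. The CPM filter of the study, a value above 1 in 2 libraries or more, was applied to the deposited counts and left 12559 of 23459 genes, which were normalized by TMM. Normalized counts are scaled to the mean effective library size, 9595289. The test of 8 h against 4 h was the quasi-likelihood test of edgeR 4.0.16 (R 4.3.3), with time as the only term, all 4 libraries and Benjamini-Hochberg adjustment over all retained genes. Limma-Voom (limma 3.58.1), the test of the study, and DESeq2 1.42.0 were alternatives, with other scalings, filters and call rules, a replicate block and each library left out. The study reports 2 biological replicates per group. Replicates were separate libraries, since the chi-square per degree of freedom between them was 2.67 at 4 h and 3.84 at 8 h. These values cannot tell separate cultures from libraries of the same RNA. The tests were first tried on simulated data whose changes were above the fold-change threshold or absent. That trial does not cover the smaller changes described here.

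The genes named are the 10 RPE identity genes and, from each further RPE list, up to 2 rises and 2 falls with an adjusted p below 0.05 and no overlap between the times, with the gene of highest level per length. The highest marker of each other cell type, overlapping genes and the genes of most similar pattern were added. Genes at 0, MYO7A, GPR143, SLC45A2, RDH5, LRAT, COL1A1, SNAI2 and FN1 were named after their values were seen, and a few genes of the lists are counted but not reported here. Symbols came from the RefSeq gene table (GRCh38.p14), which named 23308 genes. Positions and exon lengths came from GENCODE on GRCh37, the assembly of hg19.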

Additional observations from a re-analysis of the deposited data

How the results depend on the processing

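Across the 12 alternative fits, edgeR, Limma-Voom and DESeq2 called 0 of the RPE identity genes tested and 0 genes of the 5 further lists as DEGs. MITF, OTX2, PAX6 and SERPINF1 kept their direction and stayed short of the threshold in all 12, with log2FC from 0.077 to 0.24, 0.043 to 0.31, -0.17 to -0.054 and 0.52 to 0.69. An unadjusted p below 0.05 arose for 1 gene, MITF, with the block and without 8 h replicate 2. PMEL, at 7 to 12 counts, ranged from -0.066 to 0.81 when 1 library was left out, and DESeq2 gave it no adjusted p. Of the 14 named genes of the further lists, 8 kept their call in all 12 fits, and 6 (BLOC1S1, ITGAV, MLPH, NR2F1, RAB32 and RDH10) lost it in at least 1.

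Without the fold-change threshold, 20 genes of the further lists were called, 13 higher and 7 lower, and 4867 of all genes. The number for the further lists ranged from 13 to 22 with each library left out and was 25 with the block. Library size alone without that threshold, a setting chosen after seeing the data, called 19 of these genes (10 higher and 9 lower) and 4987 of all genes (1698 higher and 3289 lower). With the threshold, 669 of all genes were DEGs in the main comparison (182 higher and 487 lower), 766 with library size alone (125 higher and 641 lower), 507 with DESeq2, and 563 to 768 with each library left out. A demand for at least 10 counts in every library left 4 detected RPE identity genes in place of 8. Levels per length rose with the length of the longest transcript, to 17.6 for MITF, 5.67 for PAX6 and 1.92 for SERPINF1.

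Labels give both times the same replicate numbers. A fit with these numbers as a block called 691 DEGs, 665 of them shared, with 0 RPE identity genes. The 14 named genes of the further lists that passed in the main fit kept their call with the block. Over all 47 retained genes of these lists, 25 passed an adjusted p below 0.05 with the block, in place of 20. Deviations of same-numbered libraries had a correlation of 0.048 over all retained genes and 0.11 over the 9396 genes with 100 or more counts on average. The numbers are therefore not taken as pairs.

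Depth limits TYRP1, DCT, RLBP1, RPE65 and BEST1 most, since at 7 counts or fewer the counting intervals of their ratios include 1 and reach 3.14 or more, and DCT has no ratio.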
